A study of Homo sapiens with 18 samples.

Results

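The ATF4 and amino acid response genes are 35 protein-coding genes out of the 23710 gene symbols counted in each cell line. They were chosen by name, as ATF4 itself and genes widely reported as its targets or partners in the response to amino acid shortage. Earlier results of these data were known at the choice, so shares set beside all genes describe the list and do not test it. All 35 symbols had at least 1 count in every library of each line. They comprise 7 regulators (ATF4, ATF5, DDIT3, CEBPB, CEBPG, JDP2 and NUPR1), 4 brakes and feedback genes (TRIB3, DDIT4, SESN2 and CHAC1) and 5 enzymes of serine, glycine and one-carbon metabolism (PHGDH, PSAT1, PSPH, SHMT2 and MTHFD2). A further 5 are enzymes of asparagine, proline, alanine and phosphoenolpyruvate (ASNS, ALDH18A1, PYCR1, GPT2 and PCK2), and 5 are amino acid carriers (SLC7A1, SLC7A5, SLC3A2, SLC1A5 and SLC38A2). The rest are 6 aminoacyl-tRNA synthetases (AARS, GARS, SARS, MARS, NARS and EPRS) and 3 secreted or surface proteins (VLDLR, STC2 and GDF15).

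RNA was sequenced in 3 established lines of human squamous carcinoma of the head and neck after the level of EHF, an ETS family factor found in epithelia, had been raised or lowered. A253 cells overexpressing EHF (3 libraries) and SCC25 cells overexpressing EHF (2 libraries) were grown with 1 ug doxycycline, and their controls (3 and 2 libraries) in regular medium, so an effect of the drug and an effect of EHF cannot be told apart there. CAL27 cells with EHF knocked down by a hairpin named sh 65 (2 libraries) or sh 64 (2 libraries) were compared with control hairpin cells (2 libraries), all in regular medium without doxycycline. All media held serum, and no group was starved of an amino acid as far as the labels say. The labels do not say whether lines were clones or whether replicates came from separate cultures, so p-values measure only the spread between these libraries.

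ATF4 is a bZIP transcription factor whose messenger RNA is translated better when the initiation factor eIF2 alpha is phosphorylated, as happens when amino acids run short or the endoplasmic reticulum is stressed. ATF4 pairs with C/EBP family proteins on short composite sites and raises transcription of genes that make, import and charge amino acids onto tRNA, together with brakes such as DDIT4 and TRIB3 that restrain growth signalling or ATF4 itself. Because much of its control acts on translation, the level of ATF4 messenger RNA need not follow the level of ATF4 protein, which was not measured here.

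The composite site, called the C/EBP-ATF response element, has the letters TGATGNAA, and it is shown because it is the sequence through which ATF4 is known to reach ASNS and several other members. RefSeq promoter windows (GRCh38.p14, 250 bases before to 50 bases after an annotated start, 1 or more windows per gene) were found for 28 of the 35 members. On either strand, TGATGNAA stood in a window of 10 of these 28 genes (35.7%), against 1217 of all 27305 genes with a window (4.46%). Members were chosen as reported targets or partners of ATF4, so the higher share is no independent result. The 10 sites are printed on the strand on which the motif reads as TGATGNAA, with the motif in capitals.

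CEBPG: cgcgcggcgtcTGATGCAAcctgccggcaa
JDP2: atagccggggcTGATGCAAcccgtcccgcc
CHAC1: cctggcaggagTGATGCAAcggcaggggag
ASNS: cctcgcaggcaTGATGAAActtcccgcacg
SLC7A1: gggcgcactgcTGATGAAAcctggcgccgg
SLC3A2: ggagcTGATGTAAggagtcctgca
SLC1A5: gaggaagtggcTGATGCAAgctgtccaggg
AARS: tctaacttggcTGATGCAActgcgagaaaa
MARS: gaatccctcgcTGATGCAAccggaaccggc
NARS: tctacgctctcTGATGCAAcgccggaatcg

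In GRCh38.p14 the motifs lie at chr19:33374071-33374078 (CEBPG, plus strand), chr14:75428006-75428013 (JDP2, plus strand), chr15:40953262-40953269 (CHAC1, minus strand), chr7:97872469-97872476 (ASNS, minus strand) and chr13:29595674-29595681 (SLC7A1, minus strand). The others lie at chr11:62881736-62881743 (SLC3A2, minus strand), chr19:46784904-46784911 (SLC1A5, minus strand), chr16:70289686-70289693 (AARS, plus strand), chr12:57488064-57488071 (MARS, minus strand) and chr18:57621815-57621822 (NARS, minus strand). The ETS core CCGGAAG, the kind of sequence that EHF and its relatives bind, stood in a window of 4 of the 28 members (DDIT3, TRIB3, ASNS and NARS; 14.3%) and of 12.2% of all genes. A match is a run of letters and not a measured binding site, and a missing match says only that these letters are not in the window.

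EHF itself was higher in overexpressing than in control cells by 3.02 on the log2 scale in A253 and by 0.99 in SCC25, and it was lower by 1.1 with sh 65 and by 0.93 with sh 64 in CAL27. Library totals ran from 7068155 to 19962159 counts. Squamous markers marked every line: all 10 genes of that list averaged at least 1 CPM (counts scaled to a common library total). Their summed level was higher in CAL27 knockdown cells, at 12310 to 13700 CPM with sh 65 and 11650 to 12420 CPM with sh 64, against 8472 to 8828 CPM in CAL27 control cells. It lay at 12940 to 13900 CPM in overexpressing against 14970 to 15940 CPM in control A253 cells. In SCC25 it went the other way, at 19070 to 19670 CPM in overexpressing against 18140 to 18950 CPM in control cells. The lists of fibroblast, leukocyte, endothelial and salivary acinus markers each summed to at most 259.9 CPM in any library, and the highest sums were mostly CD68. Some of these sums also differed between groups without overlap. Leukocyte markers summed to 173.5 to 188.4 CPM in overexpressing against 126.2 to 131.2 CPM in control A253 cells. Fibroblast markers summed to 107.9 to 110.6 CPM in overexpressing against 87.84 to 98.46 CPM in control SCC25 cells, and to 14.22 to 16.7 CPM with sh 64 against 8.08 to 8.957 CPM in control CAL27 cells. The part of these shifts in the results was not tested, and in bulk RNA fewer cells with a transcript and less of it per cell cannot be told apart.

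In control cells SLC3A2, SLC38A2, SLC7A5, DDIT4 and ATF4 were among the 6 most abundant members of each line. Levels per unit of length are given as TPM, computed from the counts and gene lengths. SLC3A2, the heavy chain that pairs with several carriers, averaged 335 ± 9.86 TPM in A253 (SD, n = 3), 418 ± 5.99 TPM in CAL27 and 803 ± 0.675 TPM in SCC25 (SD, n = 2 each). SLC38A2, a sodium-coupled carrier of small neutral amino acids, averaged 417 ± 35.9 TPM in A253, 403 ± 10.6 TPM in CAL27 and 534 ± 73.2 TPM in SCC25. ATF4 averaged 191 ± 10.8 TPM in A253, 321 ± 3.33 TPM in CAL27 and 258 ± 5.64 TPM in SCC25. The libraries of the 3 lines did not overlap for ATF4, while for SLC38A2 the libraries of A253 and CAL27 overlapped. At the other end, GDF15, CHAC1 and SESN2 were among the 5 lowest members of each line.

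**Figure D1:**
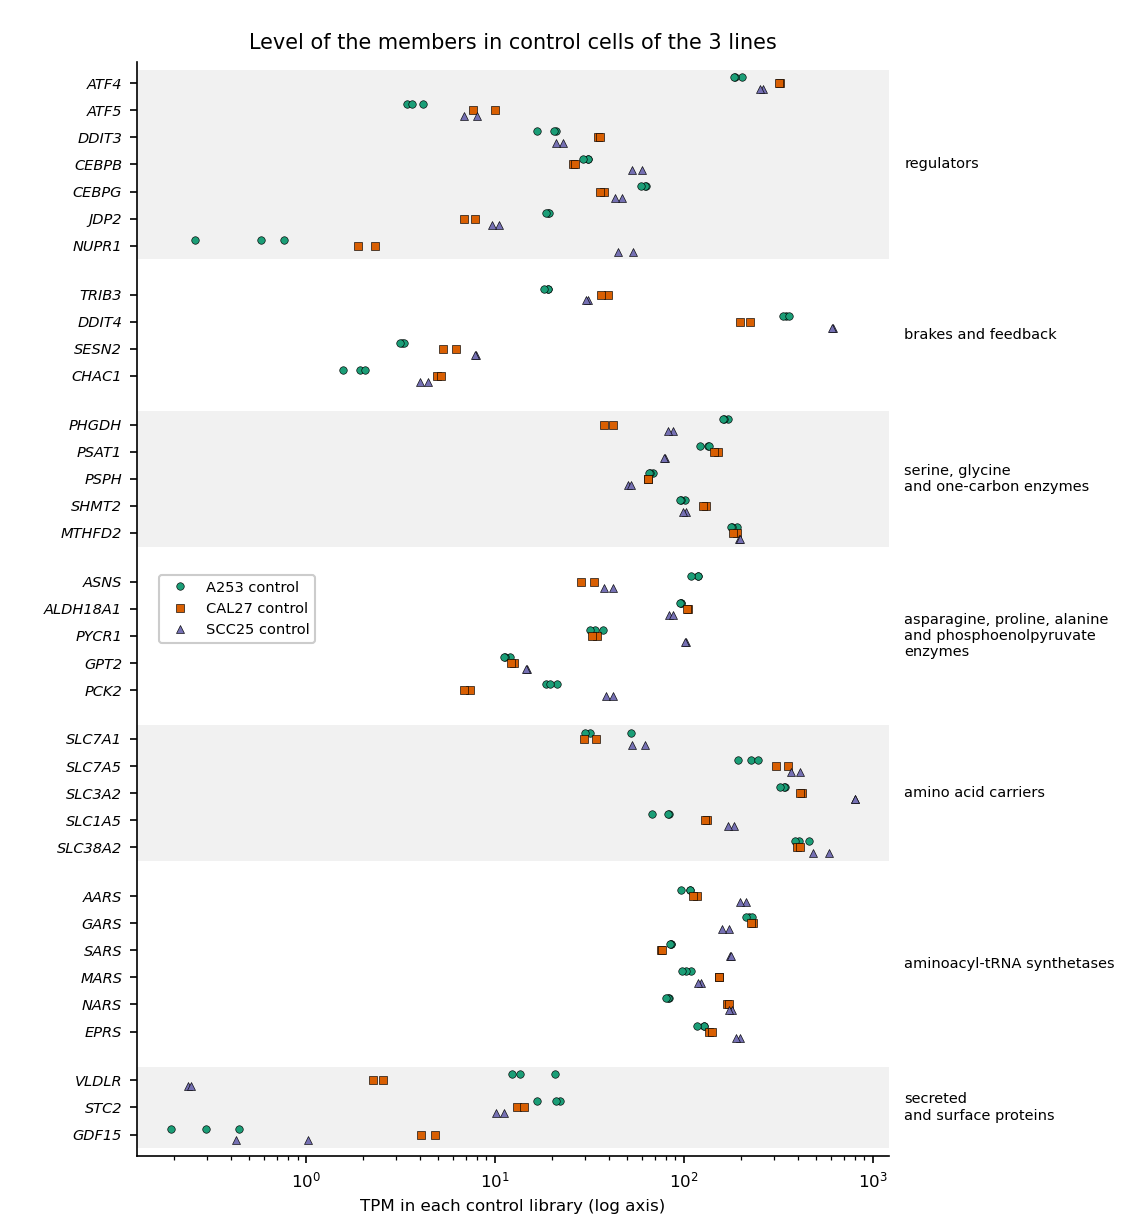
Level of each of the 35 members in every control library of A253 (3 libraries, circles), CAL27 (2, squares) and SCC25 (2, triangles), in TPM on a log axis, grouped by role. ASNS and PHGDH are highest in A253, PCK2 and PYCR1 highest in SCC25, and NUPR1, VLDLR and GDF15 are spread most widely between the lines.

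The lines differed most in a few members. ASNS, which makes asparagine, averaged 115 ± 5.7 TPM in A253, 31.0 ± 3.43 TPM in CAL27 and 39.9 ± 3.03 TPM in SCC25. PHGDH, the first enzyme of serine synthesis, averaged 165 ± 4.8 TPM in A253, 39.7 ± 3.02 TPM in CAL27 and 84.6 ± 3.82 TPM in SCC25. For both, every A253 control library lay above every library of the other lines. PCK2, the mitochondrial phosphoenolpyruvate carboxykinase, averaged 19.8 ± 1.37 TPM in A253, 7.08 ± 0.386 TPM in CAL27 and 40.5 ± 2.43 TPM in SCC25. NUPR1, a small stress-induced chromatin protein, averaged 0.532 ± 0.253 TPM in A253, 2.09 ± 0.298 TPM in CAL27 and 49.2 ± 6.59 TPM in SCC25. VLDLR, a lipoprotein receptor, ran the other way, at 15.5 ± 4.6 TPM in A253, 2.40 ± 0.197 TPM in CAL27 and 0.241 ± 0.00628 TPM in SCC25. GDF15, a secreted stress hormone, averaged 0.308 ± 0.124 TPM in A253, 4.44 ± 0.543 TPM in CAL27 and 0.725 ± 0.424 TPM in SCC25, so that CAL27 stood above both other lines.

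In edgeR's quasi-likelihood test with Benjamini-Hochberg adjustment over all genes, 34 of the 35 members differed between A253 and SCC25 controls, 9 higher and 25 lower in A253, where 73.1% of all genes tested were called, 35.4% higher and 37.7% lower. Between A253 and CAL27 controls 28 were called (71.6% of all genes), 8 higher (35.5% of all genes) and 20 lower (36.1%) in A253. Between CAL27 and SCC25 controls 29 were called (69.3% of all genes), 12 higher (33.2% of all genes) and 17 lower (36.1%) in CAL27. The median log2 difference of the members was -0.73 for A253 minus SCC25, -0.25 for A253 minus CAL27 and -0.25 for CAL27 minus SCC25, beside medians over all genes of 0.0085, -0.0032 and -0.0058. ATF4 was lower in A253 than in CAL27 by 0.88 on the log2 scale (adjusted p = 1.61e-12) and higher in CAL27 than in SCC25 by 0.33 (adjusted p = 0.000298). Each line has its own count table and its own growth medium, so line, medium and table cannot be told apart.

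Knockdown of EHF in CAL27 went with higher levels of serine synthesis enzymes, asparagine synthetase, PCK2, alanyl-tRNA synthetase and DDIT4, while ATF4 messenger RNA was not called. Averaged over the hairpins, 16 of 35 members passed the adjusted threshold of 0.05, where 18.8% of all 13629 genes tested did. Of these, 14 rose (9.88% of all genes rose) and 2 fell (8.91% of all genes fell). The median log2 change was 0.24 over the members and 0.0025 over all genes, and 29 of 35 members had a change above 0, against 50.5% of all genes. The count depended on the control libraries: without control library 1 it was 7 (6.69% of all genes) and without control library 2 it was 8 (7.44% of all genes). Of the 16 calls, 6 stood in all 11 alternative analyses: DDIT4, PHGDH, PSAT1, ASNS, PCK2 and AARS.

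**Figure D2:**
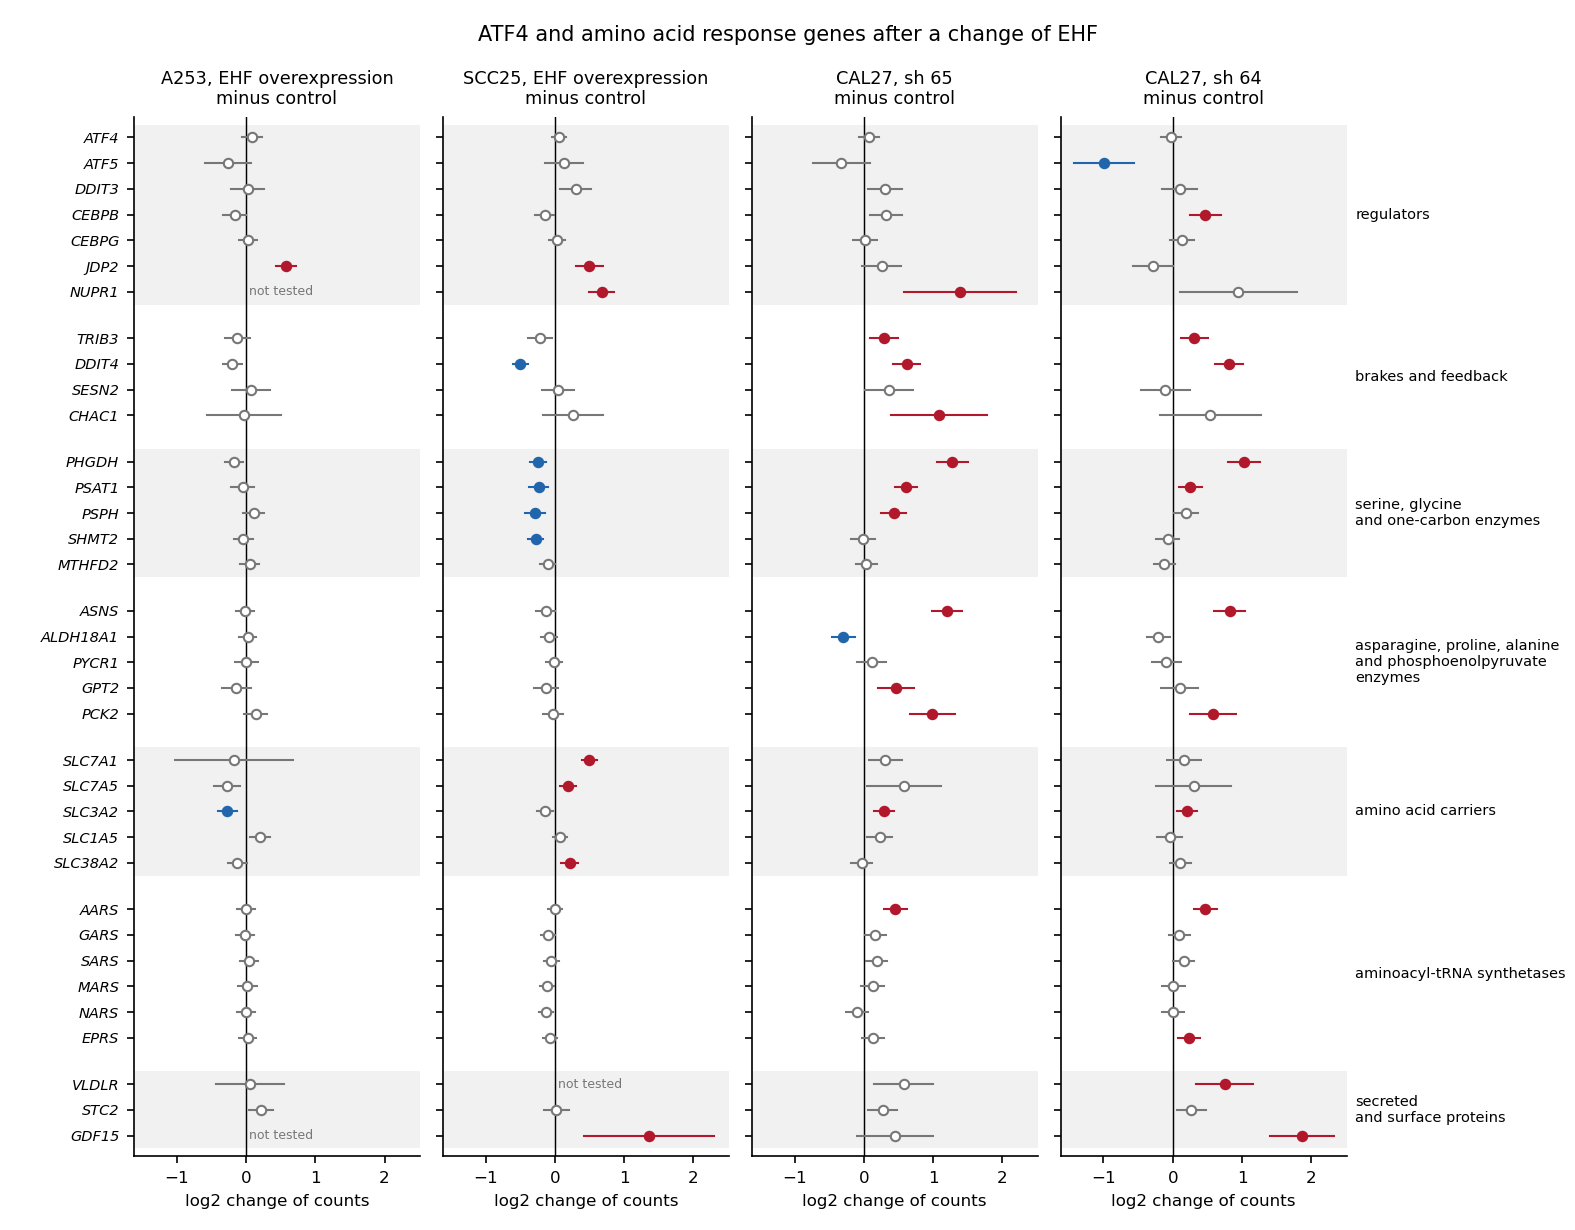
log2 change of the 35 members (points) with its 95% interval (lines) for EHF overexpression minus control in A253 and SCC25 and for sh 65 and sh 64 minus control in CAL27. Filled points passed an adjusted p of 0.05 (red higher, blue lower), and open points did not. Red points gather in the CAL27 panels, where PHGDH and ASNS lie furthest right apart from NUPR1 and GDF15, and 4 of the 5 serine, glycine and one-carbon enzymes are blue in SCC25.

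ATF4 had 356 and 357 CPM with sh 65 and 331 and 333 CPM with sh 64, against 337 and 341 CPM in control cells. The control libraries lay between the hairpins, and the mean log2 change was 0.02 (95% interval -0.10 to 0.15, adjusted p = 0.846). ATF5, a close relative of ATF4, had 9.96 and 6.90 CPM with sh 65 and 5.41 and 5.24 CPM with sh 64, against 12.2 and 9.60 CPM in control cells. The sh 64 libraries lay below both controls, while 1 sh 65 library overlapped them. Its mean log2 change was -0.66 (SE 0.169, adjusted p = 0.0107), and the call ended without control library 1 (adjusted p = 0.158). In RefSeq (GRCh38.p14) the span of ATF5 overlaps those of IL4I1 and NUP62. The annotation and strand setting behind the counts are not given, so reads of overlapping genes may not have been told apart.

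CEBPB, a C/EBP partner of ATF4, had 36.8 and 35.8 CPM with sh 65 and 37.2 and 43.9 CPM with sh 64, against 28.1 and 29.6 CPM in control cells. All knockdown libraries lay above both controls (mean log2 change 0.40, SE 0.0952, adjusted p = 0.00671), and the call ended without control library 1 (adjusted p = 0.108) or 2 (adjusted p = 0.0642). NUPR1 was low, with 2.57 and 2.91 CPM with sh 65 and 2.55 and 1.13 CPM with sh 64, against 0.885 and 1.11 CPM in control cells. Its rise of 1.17 on the log2 scale (SE 0.342, adjusted p = 0.023) rests on 8 to 33 counts per library and ended without sh 64 library 1 (adjusted p = 0.235), control library 1 (0.139) or control library 2 (0.136). DDIT3 (CHOP), CEBPG and JDP2 were not called, with mean log2 changes of 0.20, 0.08 and -0.01.

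Among the 4 brakes and feedback genes, 2 rose. DDIT4, which restrains the growth kinase mTORC1, had 276 and 318 CPM with sh 65 and 363 and 315 CPM with sh 64, against 179 and 207 CPM in control cells. Every knockdown library lay above both controls, and the mean level was 1.64-fold higher (log2 change 0.71, SE 0.0832, adjusted p = 2.04e-05). TRIB3, a pseudokinase that feeds back on ATF4, had 62.4 and 55.6 CPM with sh 65 and 62.4 and 57.2 CPM with sh 64, against 50.2 and 46.9 CPM in control cells. Its groups did not overlap either, but its rise of 0.30 (SE 0.0824, adjusted p = 0.0161) ended without sh 64 library 1 (adjusted p = 0.061), control library 1 (0.0782) or control library 2 (0.264). CHAC1, which degrades glutathione, had 11.8 and 5.45 CPM with sh 65 and 5.18 and 7.36 CPM with sh 64, against 3.98 and 4.24 CPM in control cells. All knockdown libraries of CHAC1 were above both controls, yet they spread widely and the mean change of 0.81 was not called (SE 0.281, adjusted p = 0.0673). SESN2, a leucine-sensitive brake, overlapped between groups and was not called (log2 change 0.13, adjusted p = 0.588).

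All 3 enzymes that make serine rose, of the 5 enzymes in this group. PHGDH had 95 and 109 CPM with sh 65 and 93.3 and 77.4 CPM with sh 64, against 39.0 and 44.6 CPM in control cells. The lowest knockdown library stood well above the highest control, a 2.22-fold higher level (log2 change 1.15, SE 0.095, adjusted p = 4.08e-07). PSAT1, the transaminase of the second step, had 251 and 263 CPM with sh 65 and 190.4 and 213 CPM with sh 64, against 170.3 and 167 CPM in control cells. PSPH, the phosphatase of the last step, had 93.8 and 98.7 CPM with sh 65 and 78.9 and 85.2 CPM with sh 64, against 70.2 and 72.4 CPM in control cells. For both enzymes sh 65 lay highest, sh 64 between and control lowest, with mean log2 changes of 0.43 for PSAT1 (SE 0.0675, adjusted p = 0.000228) and 0.31 for PSPH (SE 0.0721, adjusted p = 0.00536). The call of PSPH ended without control library 1 (adjusted p = 0.111) or 2 (adjusted p = 0.0731). The next 2 enzymes on the route into folate metabolism were not called: SHMT2, the mitochondrial serine hydroxymethyltransferase, had a log2 change of -0.04 (95% interval -0.19 to 0.10) and MTHFD2, a mitochondrial folate dehydrogenase, one of -0.04 (95% interval -0.18 to 0.10).

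**Figure D3:**
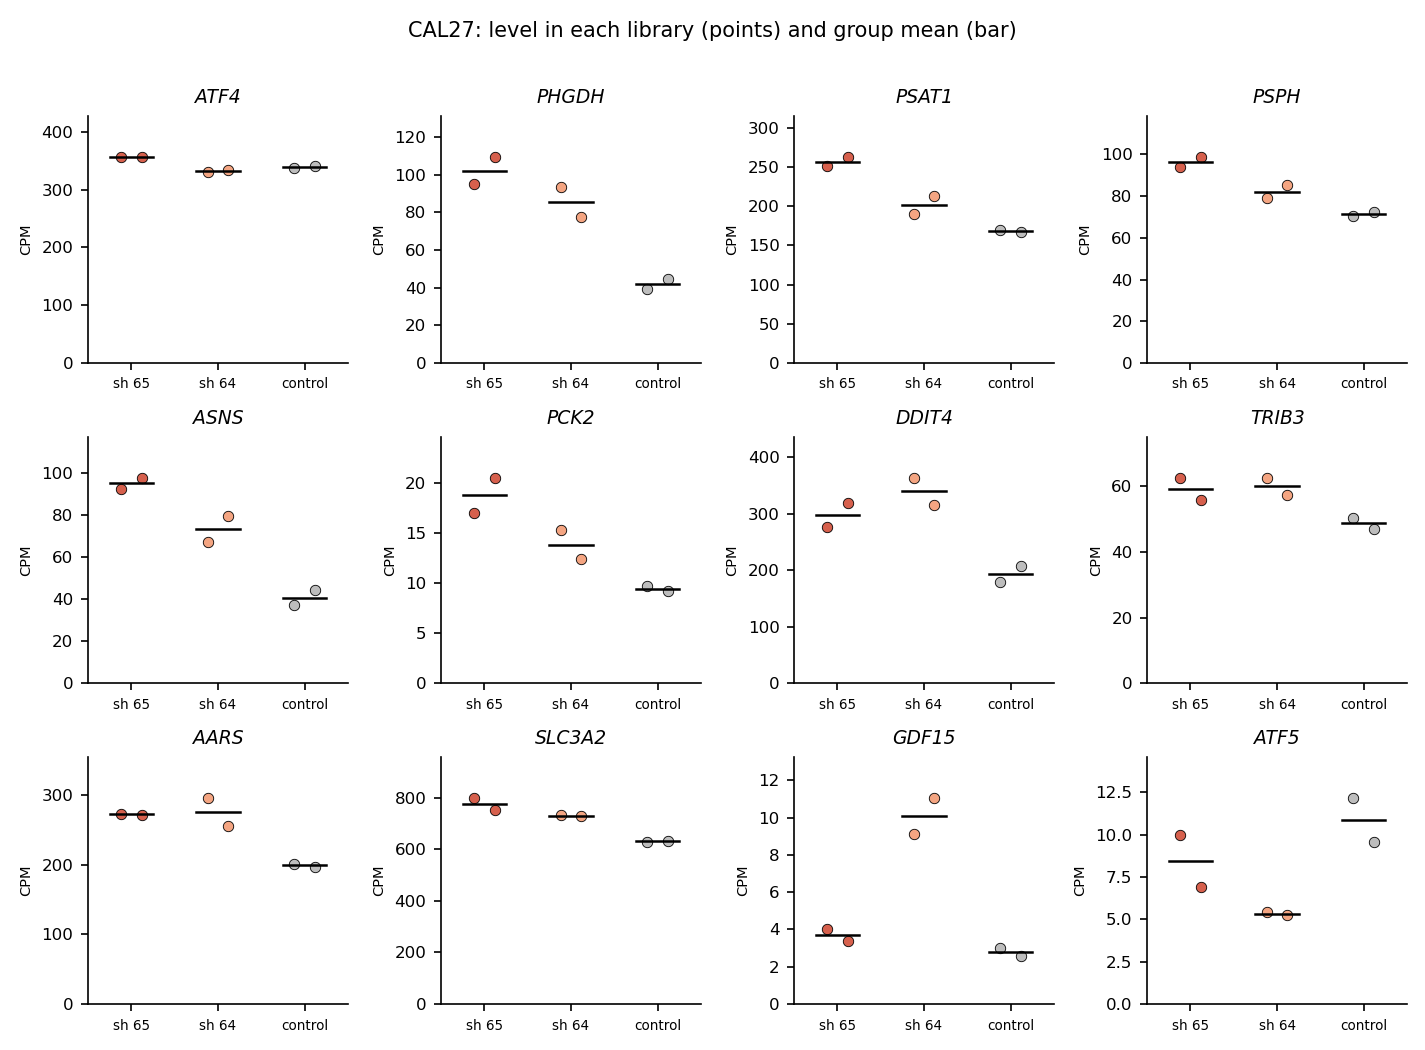
CPM of 12 members in each CAL27 library (points) with the group mean (bar), for sh 65, sh 64 and control from left to right. PHGDH, PSAT1, PSPH, ASNS, PCK2, DDIT4, TRIB3, AARS and SLC3A2 lie above control in all 4 knockdown libraries, ATF4 does not, GDF15 is highest with sh 64, and ATF5 is lowest with sh 64.

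Among the other amino acid enzymes, ASNS had 92.6 and 97.9 CPM with sh 65 and 67.5 and 79.8 CPM with sh 64, against 37.2 and 44.6 CPM in control cells. No library overlapped between knockdown and control, and ASNS was 2.02-fold higher (log2 change 1.01, SE 0.0921, adjusted p = 7.97e-07). PCK2 had 17.0 and 20.6 CPM with sh 65 and 15.3 and 12.5 CPM with sh 64, against 9.73 and 9.24 CPM in control cells. Its groups did not overlap either (log2 change 0.79, SE 0.137, adjusted p = 0.000588). The span of PCK2 overlaps that of NRL in RefSeq. ALDH18A1, which starts proline synthesis, had 152 and 155 CPM with sh 65 and 152 and 174 CPM with sh 64, against 188 and 189 CPM in control cells. All 4 knockdown libraries of ALDH18A1 lay below the controls, and it fell by 0.25 on the log2 scale (SE 0.0678, adjusted p = 0.0142); the call ended without control library 1 (adjusted p = 0.135) or 2 (0.162). PYCR1, which finishes proline synthesis, had a log2 change of 0.01 (95% interval -0.17 to 0.19), and GPT2, which makes alanine, one of 0.29 (adjusted p = 0.0741).

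Of the 5 carriers only SLC3A2 was called, with 799 and 754 CPM with sh 65 and 733 and 730.1 CPM with sh 64, against 631 and 634 CPM in control cells. The groups did not overlap (log2 change 0.25, SE 0.0604, adjusted p = 0.00666), but without control library 1 or 2 the adjusted p was 0.133 or 0.117. SLC7A5, the leucine carrier that SLC3A2 pairs with, had 1285 and 1046 CPM with sh 65 and 798 and 1127 CPM with sh 64, against 827 and 735 CPM in control cells. It overlapped with control and was not called (log2 change 0.44, adjusted p = 0.182); SLC7A5P1 and SLC7A5P2, named as copies of SLC7A5, are counted as separate genes, so its reads may be split. SLC7A1, SLC1A5 and SLC38A2, with log2 changes of 0.24, 0.09 and 0.04, were not called.

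Of the 6 tRNA synthetases only AARS, which charges alanine, was called. It had 273 and 271 CPM with sh 65 and 295 and 256 CPM with sh 64, against 201 and 197 CPM in control cells. The groups lay apart (log2 change 0.46, SE 0.0689, adjusted p = 0.000135). The other 5 had mean log2 changes from -0.04 (NARS) to 0.18 (EPRS), and EPRS and SARS came nearest to the threshold (adjusted p = 0.0619 and 0.0647). The spans of MARS and DDIT3 overlap in RefSeq.

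All 3 secreted and surface proteins rose. GDF15 had 4 and 3.39 CPM with sh 65 and 9.12 and 11 CPM with sh 64, against 2.99 and 2.58 CPM in control cells. The sh 64 libraries stood far above the rest, the mean log2 change was 1.15 (SE 0.21, adjusted p = 0.000887), and with the 4 knockdown libraries as a single group the call ended (adjusted p = 0.183). VLDLR had 6.88 and 6.54 CPM with sh 65 and 7.42 and 7.78 CPM with sh 64, against 4.75 and 4.34 CPM in control cells. STC2, the secreted glycoprotein stanniocalcin 2, had 47.6 and 45.0 CPM with sh 65 and 44.7 and 48.0 CPM with sh 64, against 36.0 and 40.1 CPM in control cells. Neither gene overlapped between knockdown and control, with log2 changes of 0.66 for VLDLR (SE 0.173, adjusted p = 0.0118) and 0.27 for STC2 (SE 0.0856, adjusted p = 0.0345). Both calls ended without control library 1 (adjusted p = 0.0617 for VLDLR and 0.367 for STC2) or 2 (0.207 and 0.104), and that of STC2 also without sh 64 library 2 (0.0755).

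DESeq2 in place of edgeR gave adjusted p-values over the threshold for ATF5 (0.0514), NUPR1 (0.147), TRIB3 (0.061), VLDLR (0.0997) and STC2 (0.126). With the 4 knockdown libraries as a single group they were over it for ATF5 (0.113), NUPR1 (0.0635), TRIB3 (0.056), PSPH (0.0584), ALDH18A1 (0.0663), STC2 (0.0798) and GDF15, and the count of called members was 9 (9.05% of all genes).

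Each hairpin on its own gave 13 called members, 12 higher and 1 lower. Over all genes 14.6% were called with sh 65 (7.62% higher, 7.01% lower) and 15.7% with sh 64 (8.76% higher, 6.89% lower). The median log2 change of the members was 0.30 with sh 65 and 0.17 with sh 64, beside 0.0058 and 0.0035 over all genes. Both are set against the same control libraries. The members higher with each hairpin were TRIB3, DDIT4, PHGDH, PSAT1, ASNS, PCK2, SLC3A2 and AARS, 8 in all. The share of all genes higher with each hairpin was not computed, so this number only describes the list. Of these 8, PHGDH, ASNS, DDIT4 and AARS kept both calls in all 10 alternatives. With sh 64 the highest adjusted p was 0.291 for SLC3A2 and 0.233 for PSAT1 (both without a control library) and 0.283 for TRIB3 (without control library 2) and 0.287 for PCK2 (without sh 64 library 1). The call of SLC3A2 with sh 64 ended in 7 of 10 alternatives, RLE size factors (0.0508), no filter (0.0588) and DESeq2 (0.0564) among them, and that of TRIB3 with sh 65 ended in 5 of 10, with an adjusted p of up to 0.361. Of the 13 calls, 7 with sh 65 and 5 with sh 64 stood in all 10 alternatives, and DESeq2 gave 7 with sh 64 (9.95% of all genes). With sh 65 alone NUPR1, CHAC1, PSPH and GPT2 were called higher and ALDH18A1 lower, and with sh 64 alone CEBPB, EPRS, VLDLR and GDF15 were called higher and ATF5 lower. The call of CHAC1 rests on sh 65 library 1: without it the log2 change was 0.39 (adjusted p = 0.438), and without control library 1 or 2 the adjusted p was 0.183 or 0.218. With the replicate block it was 0.0587. Being called with 1 hairpin does not show a difference between them, which was tested directly.

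Between the hairpins 4 members differed (5.34% of all genes tested), 3 higher (2.21% of all genes) and 1 lower (3.13%) with sh 65, and DESeq2 gave 2 (3.53% of all genes). PSAT1 was higher with sh 65 than with sh 64 by 0.35 on the log2 scale (SE 0.077, adjusted p = 0.01), ASNS by 0.38 (SE 0.101, adjusted p = 0.034) and the bZIP repressor JDP2 by 0.54 (SE 0.142, adjusted p = 0.0302). JDP2 had 20.3 and 18.4 CPM with sh 65 and 13.9 and 12.5 CPM with sh 64, against 17.1 and 15.5 CPM in control cells. Its hairpins thus lay on either side of control, and neither differed from it past the threshold (adjusted p = 0.213 with sh 65 and 0.187 with sh 64). GDF15 was lower with sh 65 by 1.41 (SE 0.225, adjusted p = 0.000765), and its call stood in all 10 alternatives. The calls of PSAT1, ASNS and JDP2 ended without sh 64 library 1 (adjusted p = 0.131, 0.317 and 0.109), that of ASNS also without sh 65 library 2 (0.0569), and that of JDP2 also without sh 65 library 1 (0.141) or sh 64 library 2 (0.146). DESeq2 gave adjusted p-values of 0.0865 for ASNS and 0.149 for JDP2. EHF itself was not called between the hairpins (log2 difference -0.16, adjusted p = 0.23).

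In SCC25, EHF overexpression went with lower DDIT4 and lower enzymes of serine and glycine metabolism, and with higher levels of 3 of the 5 amino acid carriers and 2 of the 7 regulators, JDP2 and NUPR1. Of 34 members tested, 11 passed the threshold, where 23.9% of all 14120 genes tested did: 6 rose (12.2% of all genes) and 5 fell (11.6% of all genes). The median log2 change was -0.04 over the members and 0.0026 over all genes. VLDLR was below the filter on low counts. Of the 11 calls, those of JDP2, NUPR1, DDIT4, SHMT2 and SLC7A1 stood in all 8 alternatives. DESeq2 called 7 (13.4% of all genes), with adjusted p-values of 0.0863 for PSAT1, 0.0583 for PSPH and 0.17 for SLC38A2 and none given for GDF15.

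DDIT4 had 388 and 392 CPM in overexpressing cells, against 541 and 562 CPM in control cells. The groups were clearly apart, a 1.41-fold lower level (log2 change -0.50, SE 0.0507, adjusted p = 5.56e-08). SHMT2 had 121 and 122 CPM in overexpressing cells, against 147 and 149 CPM in control cells (log2 change -0.28, SE 0.051, adjusted p = 0.000219). PHGDH had 75.2 and 73.3 CPM in overexpressing cells, against 88.3 and 87.4 CPM in control cells (log2 change -0.24, SE 0.0572, adjusted p = 0.00259). PSAT1 had 81.8 and 70.5 CPM in overexpressing cells, against 87.4 and 90.7 CPM in control cells, and PSPH had 47.3 and 45.0 CPM, against 53.4 and 58.6 CPM. All 3 serine enzymes lay below control in both overexpressing libraries, with changes of -0.23 for PSAT1 (adjusted p = 0.00956) and -0.28 for PSPH (adjusted p = 0.00382). Without overexpression library 2 the adjusted p was 0.0517 for PHGDH, 0.352 for PSAT1 and 0.0716 for PSPH, and without control library 2 it was 0.0538 for PSAT1 and 0.0513 for PSPH, so these calls ended there. MTHFD2 was not called (log2 change -0.11, adjusted p = 0.14).

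**Figure D4:**
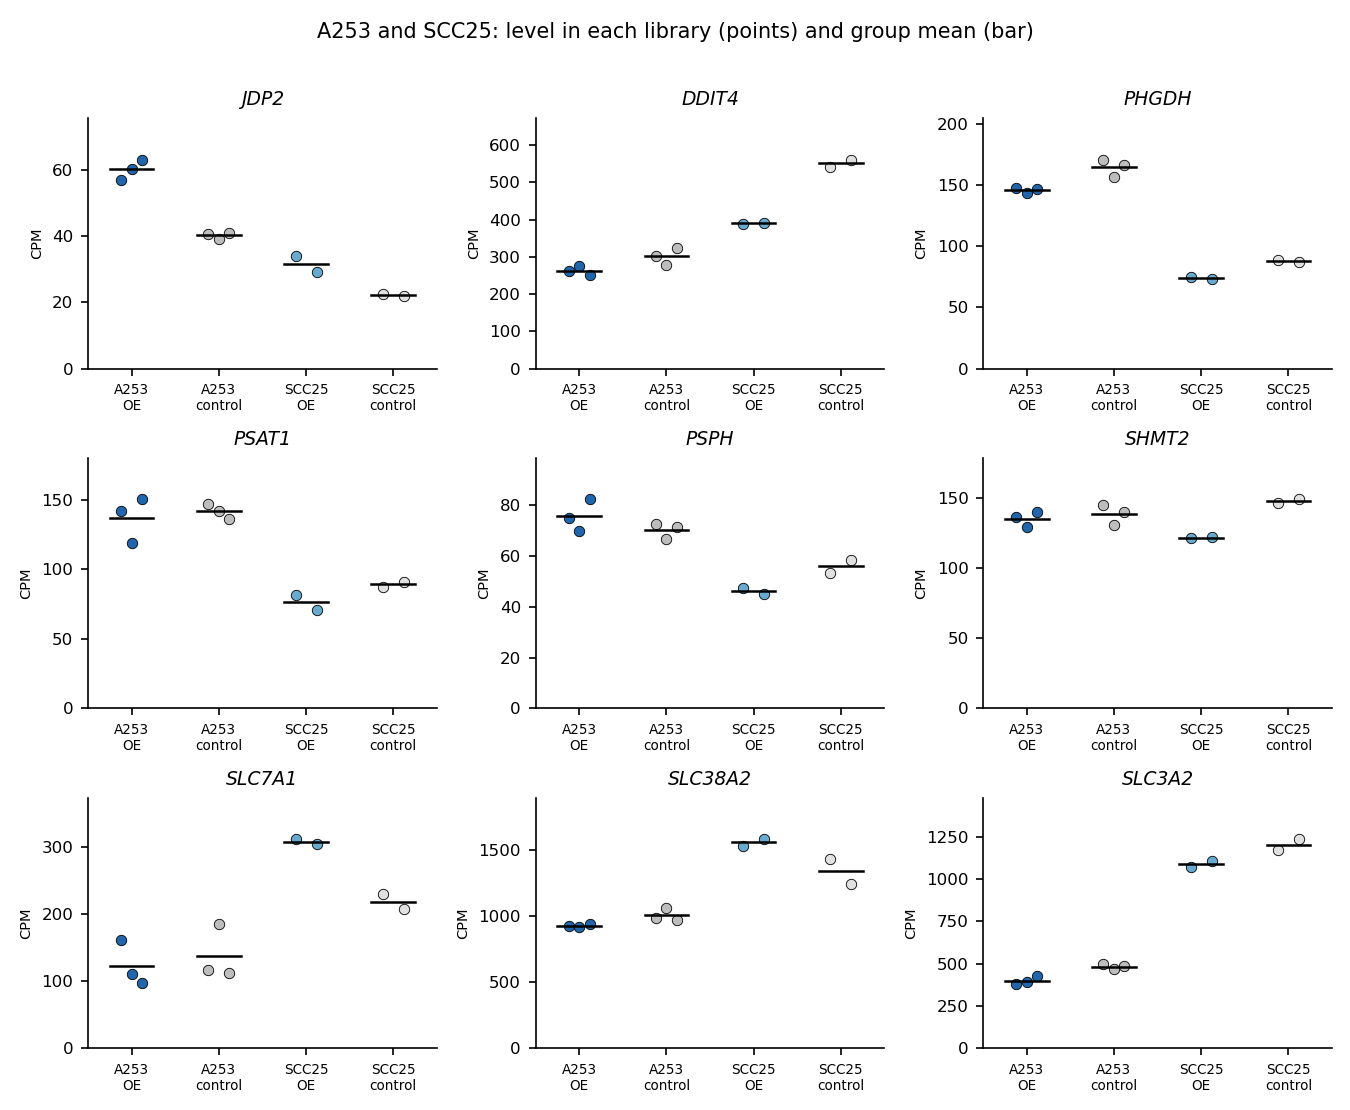
CPM of 9 members in each A253 and SCC25 library (points) with the group mean (bar), overexpressing (OE) cells to the left of control cells of each line. JDP2 is higher in overexpressing cells of both lines; DDIT4, PHGDH, PSAT1, PSPH and SHMT2 are lower and SLC7A1 and SLC38A2 higher in overexpressing SCC25 cells.

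SLC7A1, the carrier of arginine and lysine, had 311 and 304 CPM in overexpressing SCC25 cells, against 229 and 207 CPM in control cells. It was 1.41-fold higher with no overlap (log2 change 0.50, SE 0.053, adjusted p = 1.22e-07). SLC38A2 had 1537 and 1584 CPM in overexpressing cells, against 1437 and 1249 CPM in control cells, and SLC7A5 had 1073 and 1005 CPM, against 936 and 882 CPM. Both rose by less, by 0.22 for SLC38A2 (SE 0.0595, adjusted p = 0.00911) and 0.19 for SLC7A5 (SE 0.0549, adjusted p = 0.0117). SLC7A5 lost its call without overexpression library 1 (adjusted p = 0.298), and SLC38A2 without overexpression library 1 (0.066) or 2 (0.17). SLC3A2, the partner of SLC7A5, had 1074 and 1104 CPM in overexpressing cells, against 1171 and 1234 CPM in control cells, below control but just short of the threshold (log2 change -0.14, adjusted p = 0.0529).

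Among the regulators, NUPR1 had 34.4 and 38.9 CPM in overexpressing SCC25 cells, against 24.6 and 21.5 CPM in control cells, a 1.59-fold higher level with no overlap (adjusted p = 4.62e-06). JDP2 had 34.0 and 29.0 CPM in overexpressing cells, against 22.4 and 21.8 CPM in control cells, and was 1.41-fold higher (log2 change 0.50, SE 0.0925, adjusted p = 0.000269). ATF4 had 283 and 276 CPM in overexpressing cells, against 266 and 272 CPM in control cells. Both overexpressing libraries lay just above control, and ATF4 was not called (log2 change 0.06, 95% interval -0.04 to 0.16, adjusted p = 0.454). GDF15 rested on 4 to 19 counts per library, with 1.04 and 1.26 CPM in overexpressing cells, against 0.618 and 0.270 CPM in control cells (log2 change 1.36, SE 0.455, adjusted p = 0.0312). Its call ended without overexpression library 1 (adjusted p = 0.0606) or 2 (0.272) and without control library 2 (0.283). None of the 6 tRNA synthetases was called, with log2 changes between -0.12 and -0.0046.

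In A253, where EHF rose most, 2 of 33 members tested were called, 1 higher and 1 lower, where 7.97% of all 14503 genes were (5.03% higher, 2.94% lower). JDP2 had 56.9, 60.4 and 63.1 CPM in overexpressing cells, against 40.5, 39.3 and 40.9 CPM in control cells. Every overexpressing library lay above every control, a 1.49-fold higher level that stood in all 10 alternatives (log2 change 0.58, SE 0.0693, adjusted p = 3.47e-05). SLC3A2 had 381, 391 and 429 CPM in overexpressing cells, against 496, 468 and 483 CPM in control cells. It too did not overlap (log2 change -0.27, SE 0.0639, adjusted p = 0.0134), but the call ended without overexpression library 1 (adjusted p = 0.0565) or control library 1 (adjusted p = 0.102). The median log2 change was 0.0023 over the members and -0.0035 over all genes. NUPR1 and GDF15, with 1 to 7 counts per library, were below the filter on low counts.

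ATF4 had 187, 206 and 216 CPM in overexpressing A253 cells, against 205, 179 and 192 CPM in control cells, overlapping throughout (log2 change 0.08, adjusted p = 0.6). PHGDH had 148, 144 and 147 CPM in overexpressing cells, against 171, 157 and 167 CPM in control cells. DDIT4 had 263, 275 and 251 CPM in overexpressing cells, against 302, 278 and 324 CPM in control cells. Both lay below control in every overexpressing library without passing the threshold, at log2 changes of -0.18 for PHGDH (adjusted p = 0.0908) and -0.20 for DDIT4 (adjusted p = 0.0967). SLC7A1 spread so widely among A253 libraries, from 96.5 to 161 CPM in overexpressing and from 112 to 184 CPM in control cells, that its interval of -1.03 to 0.68 holds the change seen in SCC25.

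A test of the difference between the overexpression effects called 2 of 35 members, 1 higher and 1 lower in SCC25, where 5.63% of all genes were called (2.39% higher, 3.25% lower). The effect on SLC38A2 was 0.32 higher in SCC25 than in A253 (SE 0.0942, adjusted p = 0.0478), where SLC38A2 had a change of -0.12 (adjusted p = 0.305), and that on PSPH was 0.40 lower (SE 0.108, adjusted p = 0.0304), where PSPH had one of 0.11 (adjusted p = 0.474). Neither call stood in all 14 alternatives. The call of PSPH ended without A253 overexpression library 3 (adjusted p = 0.0755) or control library 2 (0.0754), and without SCC25 overexpression library 1 (0.101) or 2 (0.149) or control library 2 (0.244), and DESeq2 gave 0.087. The call of SLC38A2 ended without any 1 of 8 of the 10 libraries, at adjusted p-values from 0.0606 to 0.3, and with RLE size factors (0.0535). The differences for DDIT4 (-0.32, adjusted p = 0.0504) and SLC7A5 (0.45, adjusted p = 0.0579) fell just short, and JDP2, called in both lines, differed by -0.09 (adjusted p = 0.737). The log2 effect on EHF itself differed by -2.05 (SCC25 minus A253).

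Across the 3 lines, ATF4, DDIT3, CEBPG, SESN2, CHAC1, MTHFD2 and PYCR1 were called in none of A253, SCC25 and the CAL27 mean. The same held for GPT2, SLC1A5, GARS, SARS, MARS, NARS and EPRS. SCC25 and CAL27, which share no control library, had 6 called members in common, 6 of 11 in SCC25 and 6 of 16 in CAL27. That is 17.6% of the 34 members tested in both, where 7.32% of all 12951 genes tested in both were called in both. Calls in opposite directions made up 4 of 34 members (11.8%) and 2.42% of all genes, and calls in the same direction 2 of 34 (5.88%) and 4.9% of all genes. DDIT4, PHGDH, PSAT1 and PSPH were lower in EHF overexpressing SCC25 cells and higher in EHF knockdown CAL27 cells, while NUPR1 and GDF15 were higher in both. ASNS, which was 2.02-fold higher in CAL27 knockdown cells, had 49.4 and 45.7 CPM in overexpressing against 53.4 and 50.6 CPM in control SCC25 cells, below control without being called (log2 change -0.14, adjusted p = 0.167). Of the 10 genes whose window holds TGATGNAA, 3 were higher in CAL27 knockdown cells (ASNS, SLC3A2 and AARS). Among genes with a window the motif stood in 3 of 12 members called higher there (25.0%) and in 7 of 16 others (43.8%).

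A further 82 genes of the pathway were taken as lists of sensors and phosphatases, other bZIP factors, carriers, enzymes, synthetases and other reported targets, and 81 of them were in the tables. In the CAL27 mean 16 of 77 tested rose and 10 fell, where 9.88% of all genes rose and 8.91% fell, with a median log2 change of 0.01. Among 19 enzymes 5 rose and 2 fell: PRODH, which degrades proline, rose by 1.47 (adjusted p = 0.000325), ALDH1L2, a mitochondrial folate enzyme, by 1.09 (adjusted p = 2.64e-05) and CBS, which makes cystathionine, by 0.63 (adjusted p = 0.000354). Among 14 carriers tested 4 rose and 3 fell. The largest change was a fall of SLC7A2, a carrier of cationic amino acids, with 0.513 and 0.605 CPM with sh 65 and 2.32 and 1.98 CPM with sh 64, against 4.20 and 2.37 CPM in control cells (log2 change -1.46, adjusted p = 0.00433). SLC7A8, a carrier of neutral amino acids, rose by 1.32 (adjusted p = 0.00243). SLC1A4, a carrier of alanine, serine and cysteine, had 24.7 and 25.1 CPM with sh 65 and 23.9 and 24.2 CPM with sh 64, against 9.95 and 12.0 CPM in control cells, with no overlap (log2 change 1.13, adjusted p = 3.04e-06). SESN3, a sestrin that restrains mTORC1, had 33.7 and 44.2 CPM with sh 65 and 26.5 and 28.4 CPM with sh 64, against 13.0 and 13.3 CPM in control cells (log2 change 1.30, adjusted p = 9.67e-07). SESN3 too lay above control in all 4 libraries. It is 1 of 9 other reported targets and brakes tested, of which 3 rose and 2 fell, with a median log2 change of 0.047. MAP1LC3B rose by 0.51 (adjusted p = 0.00504) and SQSTM1 fell by 0.38 (adjusted p = 0.000194). Of 18 synthetases and cofactors 2 rose and 1 fell. CARS, which charges cysteine, rose by 0.49 (adjusted p = 0.000116), and FARSA fell by 0.47 (adjusted p = 0.000875). Of 9 sensors and phosphatases none rose, and PPP1R15A, a phosphatase subunit that restores eIF2 alpha, fell by 0.40 (adjusted p = 0.00221). With the hairpins apart, PPP1R15A and SLC7A2 were called with sh 65 and not with sh 64, and MAP1LC3B with sh 64 and not with sh 65.

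In SCC25, 16 of 78 tested rose and 15 fell, where 12.2% of all genes rose and 11.6% fell. Of 18 synthetases and cofactors 8 fell and none rose, with a median log2 change of -0.13. The largest falls there were FARSB by 0.37 (adjusted p = 2.06e-05), EEF1E1 by 0.30 (adjusted p = 0.029) and AIMP2 by 0.28 (adjusted p = 0.0346), a phenylalanine synthetase subunit and scaffold proteins of the synthetase complex. Among 8 bZIP factors 3 rose and 1 fell: ATF3, a stress-induced factor, had 17.3 and 18.1 CPM in overexpressing cells, against 7.35 and 8.52 CPM in control cells (log2 change 1.16, adjusted p = 9.98e-08). ATF3 was also higher in the CAL27 knockdown mean, by 0.74 (adjusted p = 0.00362). With the hairpins apart, it was called with sh 64 (log2 change 0.94, adjusted p = 0.00175) and not with sh 65. The remaining lists in SCC25 did not fall as the synthetases did. Of 9 other reported targets and brakes tested 4 rose and 1 fell, with WIPI1 up by 0.57 (adjusted p = 3.89e-06) and MAP1LC3B by 0.40 (adjusted p = 5.48e-05). Of 9 sensors and phosphatases 2 rose and none fell. Among 19 enzymes 5 rose and 3 fell, and among 15 carriers tested 2 rose and 2 fell. In A253, 8 of 76 tested rose and 4 fell, where 5.03% of all genes rose and 2.94% fell, among them the glutamate carrier SLC1A3, which rose by 0.52 (adjusted p = 6.64e-05), and SESN3, which fell by 0.45 (adjusted p = 0.0102).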

How the data were processed

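Raw counts per gene symbol were made and deposited by the authors, 1 table per line. The submitters' processing notes name TopHat2 2.1.1, featureCounts 1.5.3, Bowtie 1.1.1, DESeq2 1.12.4 and hg19; annotation and strand setting are not given in the sources used here. The authors also deposited TPM values for A253 and CAL27, used for gene lengths; TPM here were recomputed from counts with those lengths. The SCC25 TPM table was not used, and 4 columns of per-sample values are left out with it. CAL27 count names altered for 696 genes (PYCR1 and NUPR1 among the members) were taken by position from the A253 table; implied lengths were equal within 0.01 log2 for 17691 of 17691 genes. For CAL27, hairpin names in the TPM table are swapped relative to the counts. Replicate numbers also differ there: by genes at 0, sh 64 libraries 1 and 2 of the counts matched TPM columns sh 65 2 and 1. The names and numbers beside the counts are used, and the labels tie neither hairpin name to a knockdown number. The CAL27 library numbers and the replicate block rest on the numbers beside the counts.

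Counts were fitted with edgeR 4.0.16 in R 4.3.3 (filterByExpr, TMM, robust quasi-likelihood; 1 fit per line, joint fits for line comparisons), two-sided, with Benjamini-Hochberg adjustment over all genes tested and a threshold of 0.05. The fit was tested on simulated data. CPM are relative to TMM-scaled totals. Precision is limited by 2 or 3 libraries per group at 7068155 to 19962159 counts each. Alternatives were other size factors (RLE), no filter, DESeq2 1.42.0, the replicate number as a block, each library left out and, in CAL27, the knockdown libraries as a single group. Same-numbered libraries did not deviate together in every pair, and the main fits used no pairing. In SCC25 and CAL27, with 2 libraries per group, this check cannot decide whether the numbers pair them. Values per library are given for ATF4 and for members called in any contrast of EHF level, between hairpins or between effects; further pathway genes are named as up to 3 per list with the largest called change. Members and lists were chosen with earlier results of these data known. The ChIP library and its input were not analysed here.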

Additional observations from a re-analysis of the deposited data

Results flagged for a closer look

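Of 35 member groups with enough libraries to be checked (the 4 CAL27 knockdown libraries), 2 held a library apart from the others by Dixon's criterion. That is near the rate of about 1 in 20 groups that chance alone marks. The 4 libraries come from 2 hairpins, so they are not replicates of a single condition. ALDH18A1 had 174.5 CPM in sh 64 library 2, above the other knockdown libraries and below both controls. NARS had 225 CPM in sh 65 library 1, below the other knockdown and both control libraries. The overexpression effect on SLC38A2 was 0.32 higher (log2) in SCC25 than in A253, and the difference for PSPH was -0.40, by the interaction test in edgeR (adjusted p = 0.0478 and 0.0304). No explanation of these values was tested.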

How the results depend on the processing

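No called value changed sign under any alternative, and none moved the median over all genes by more than 0.05 on the log2 scale. With DESeq2, 7 members passed the threshold in SCC25 (13.4% of all genes), 7 with sh 64 (9.95%) and 2 between the hairpins (3.53%). Without the filter on low counts, 7 were called between the hairpins (5.55% of all genes) and 4 between the overexpression effects (4.67%). With the CAL27 knockdown libraries as a single group, 9 were called (9.05% of all genes). Leaving out 1 library at a time, the count ran from 1 to 3 in A253, 6 to 13 in SCC25, 7 to 18 in the CAL27 mean, 6 to 15 with sh 64, 7 to 15 with sh 65, 1 to 8 between the hairpins and 0 to 4 between the overexpression effects. In SCC25 and CAL27 this leaves a group with a lone library, which is assumed to vary like the others. The share of all genes called also changed with the library left out, in A253 from 4.52% to 7.13%. These ranges therefore do not describe the members alone. With the replicate block, 3 members were called in A253 (7.4% of all genes), 11 in SCC25 (24.9%) and 19 in the CAL27 mean (24.3%). The block also gave 15 with sh 64 (21.8%), 17 with sh 65 (19.9%), 7 between the hairpins (9.24%) and 3 between the overexpression effects (6.31%). Same-numbered libraries correlated between -0.493 and 0.526, both in A253. In SCC25 and CAL27, with 2 libraries per group, deviations mirror each other, so this check cannot tell whether the numbers are a pairing. Between control lines every count stayed within 1.5 times the one reported. With 2 or 3 libraries per group, changes of low members such as NUPR1 and GDF15 are poorly resolved.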
